A study of Mus musculus with 8 samples.

Results

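The genes described here are 7 receptors of the TNF receptor superfamily and 3 of the adaptors that bind such receptors inside the cell. The receptors are Cd27, Tnfrsf9 (CD137), Tnfrsf18 (GITR), Tnfrsf4 (OX40), Tnfrsf1a and Tnfrsf1b (the type I and type II receptors for TNF) and Tnfrsf14 (HVEM), and the adaptors are Traf1, Traf2 and Traf3. They were chosen by symbol, as costimulatory TNF receptors and TRAFs, and all 10 were among the 48321 gene symbols of the count files. Of these 10 genes, 8 passed the filter on low counts that 12595 genes passed in all, while Tnfrsf4 and Tnfrsf14 did not and are described by their reads.

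Receptors of this superfamily sit on the cell surface and are engaged by trimeric ligands, mostly on neighbouring cells. The costimulatory members recruit TRAF adaptors through short motifs in their cytoplasmic tails, and the TRAFs pass the signal to NF-κB and to stress kinases. In mouse NK cells, CD27 is known above all as a marker of maturation: it is high on less mature cells and is lost from the most mature, CD11b-high cells. TRAF2 and TRAF3 together keep the kinase NIK (the product of Map3k14) at a low level, and TRAF1 is itself a well-known NF-κB target gene.

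RNA was sequenced from NK cells sorted without culture as CD45+ TCRb- NK1.1+ cells from the lung and the spleen of C57/Bl6 mice. The mice were Wt or Ccl5 ΔPE/ΔPE (KO), in which a proximal enhancer upstream of Ccl5 is deleted from both alleles in the germline, so that every cell carries the deletion and not NK cells alone. Each of the 4 groups (both genotypes in both organs) had 2 libraries, and the labels give neither age nor sex. The labels do not say that the libraries came from separate mice, so p-values measure the spread between these libraries, which may be technical.

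Between 3132963 and 26482366 reads per library were counted on genes, with replicate 2 of spleen KO by far the deepest. The variance between the libraries of a group was between 1.22 and 1.52 times that of counting alone. Levels are given in CPM (counts scaled to a common library total, after TMM), as mean ± SD of 2 libraries. In such bulk samples, fewer cells of a type and less RNA per cell cannot be told apart. Ccl5 itself was at 18900 ± 825 (Wt) and 3087 ± 143 CPM (KO) in lung, and at 16140 ± 716 (Wt) and 2550 ± 172 CPM (KO) in spleen. Summed marker levels also moved with the genotype. Those of 10 NK markers were at 38680 and 39960 CPM in the lung Wt libraries and at 32540 and 32550 CPM in lung KO. In spleen they were at 29820 and 30120 CPM in Wt and at 37430 and 39230 CPM in KO. Gzma made up most of this sum, at 24790 and 17960 CPM in lung Wt and KO and 15460 and 21950 CPM in spleen. Of the 10 markers, 3 were called as higher and 5 as lower in lung KO, and 7 as higher and 3 as lower in spleen KO. In lung, 5 ILC1 markers went from 106 and 110 CPM in Wt to 60.7 and 61.0 CPM in KO. Of these, Il7r (44.5 and 16.9 CPM in Wt and KO), Cxcr6 and Cd200r1 were called as lower. Tmem176b and Itga1 (8.18 and 10.5 CPM in Wt and KO) were not called. Il7r is also among the genes of the CD27-high stage below. In lung, 10 T-cell markers went from 160 and 167 CPM in Wt to 124 and 128 CPM in KO. Trbc2 made up most of this sum, at 94.7 CPM in Wt and 76.0 CPM in KO. Of the 5 T-cell markers tested in lung, Trac and Trbc2 were called as lower, and the other 3 were not called. The sum of 8 markers of lung tissue went from 307 and 312 to 401 and 437 CPM in lung. Among them Sftpc rose from 154 ± 2.48 to 266 ± 21.8 CPM, while Scgb1a1 fell from 85.2 ± 2.73 to 62.0 ± 2.51 CPM. In spleen, 8 myeloid markers went from 20.2 and 20.4 CPM in Wt to 27.1 and 27.7 CPM in KO. Cd68 made up most of this sum, at 13.84 CPM in spleen Wt and 20.02 CPM in spleen KO. It was the 1 called of the 3 myeloid markers tested there. The part of such cells in the results was not tested.

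A technical value moved with the genotype as well. Across genes, the log2 fold change of KO against Wt had a Spearman correlation with the GC content of the gene of 0.290 in lung and of -0.272 in spleen, over 12501 genes that are not independent replicates. The 8 tested genes had a median GC content of 53.5%, against 48.8% for all genes tested. Where the call, the direction or the size (by over 1.5 times) of a log2 fold change of these 8 genes depended on this trend, it is given also with the trend removed by an offset fitted in each library.

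In lung NK cells, 6 of the 8 tested genes differed between KO and Wt. Traf3, Tnfrsf1a, Tnfrsf1b, Cd27 and Tnfrsf9 were higher in KO, and Tnfrsf18 was lower. In spleen NK cells, 7 of the 8 differed: Cd27 and Tnfrsf18 were higher in KO, and Tnfrsf9, Tnfrsf1a, Tnfrsf1b, Traf1 and Traf2 were lower. Of the 5 genes called in both organs, Cd27 was the 1 that moved the same way, higher in KO, and the other 4 were called in opposite directions, although for Tnfrsf9 and Tnfrsf1a 1 of these calls depended on the processing. Calls were made with edgeR's quasi-likelihood test at a Benjamini-Hochberg adjusted p of at most 0.05 over all 12595 genes.

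These counts stand against a background in which most genes were called. In lung, 55.6% of all genes tested were called, 29.2% as higher and 26.4% as lower in KO, and 26.7% were called with a fold of at least 1.5. In spleen, 57.1% were called, 28.2% as higher and 28.9% as lower, and 23.8% with that fold. The difference between the KO effects of the organs, tested as an interaction, was called for 61.6% of genes, 32.5% with a higher and 29% with a lower effect in lung, and 43.3% past that fold. Scaling by library totals moved the share of higher calls among all calls from 52.5% to 63.3% in lung and from 52.9% to 63.5% for the interaction. Of 4367 genes called in both organs, 3402 moved in opposite directions, 1790 of them higher in lung KO and lower in spleen KO, so that this opposition was shared by most genes and was not particular to these receptors.

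**Figure D1:**
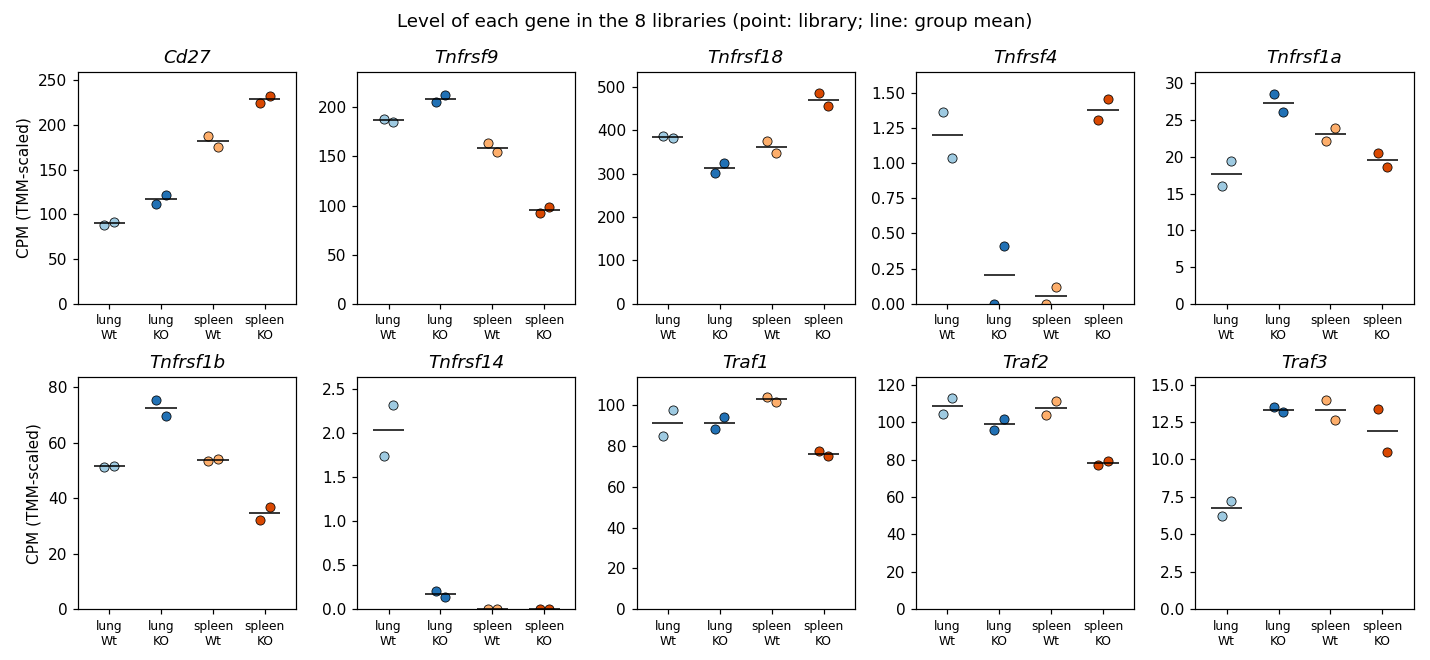
CPM of each of the 10 genes (vertical axes, each from 0, on its own scale) in the 4 groups (horizontal axis); each point is a library and each line the mean of 2 libraries. Cd27 was higher in KO than in Wt in both organs, while Tnfrsf9, Tnfrsf1a and Tnfrsf1b were higher in lung KO and lower in spleen KO, and Tnfrsf14 was read at more than 1 CPM in the 2 lung Wt libraries alone.

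Cd27 (chr6:125232622-125237010, minus strand, GRCm38) encodes the receptor for CD70. Its level was 88.5 and 91.8 CPM in the Wt libraries of the lung and 112 and 122 CPM in its KO libraries. In the spleen these levels were 188 and 176 CPM (Wt) and 225 and 233 CPM (KO). The 4 groups did not overlap, and lung Wt was the lowest and spleen KO the highest. Cd27 rose 1.31-fold in lung KO (log2 fold change 0.39, SE 0.066, edgeR adjusted p = 4.41e-06) and 1.28-fold in spleen KO (0.355, SE 0.050, adjusted p = 1.68e-07). With the GC trend removed, the log2 fold change was 0.16 in lung (adjusted p = 0.0292) and 0.51 in spleen (adjusted p = 6.96e-12). The lung call was lost when a block for replicate number was added to that offset (0.145, adjusted p = 0.0513).

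The effect on Cd27 did not differ detectably between the organs in the fit without the offset (difference of log2 fold changes, lung minus spleen, 0.035, 95% interval -0.13 to 0.20, adjusted p = 0.736). That answer depended on the processing: the difference was -0.35 with the GC trend removed (adjusted p = 0.000268) and 0.20 with libraries scaled by their totals (adjusted p = 0.0404). The larger contrast for Cd27 was between the organs. It was lower in lung than in spleen by 1.01 on the log2 scale in Wt (SE 0.062, edgeR adjusted p = 1.16e-16) and by 0.97 in KO (SE 0.053, adjusted p = 2.7e-18), about 0.50-fold in Wt and 0.51-fold in KO.

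The 250 bases before the annotated start of Cd27 (RefSeq, GRCm38.p6, chr6:125237028-125237277, minus strand, 56% GC) are shown because Cd27 was the 1 gene higher in KO in both organs. They hold no match on either strand to the letters TGTGGT (RUNX), TGANTCA (AP-1), TCACAC (T-box) or the NF-kappaB consensus, so none of it is in capitals.
Cd27: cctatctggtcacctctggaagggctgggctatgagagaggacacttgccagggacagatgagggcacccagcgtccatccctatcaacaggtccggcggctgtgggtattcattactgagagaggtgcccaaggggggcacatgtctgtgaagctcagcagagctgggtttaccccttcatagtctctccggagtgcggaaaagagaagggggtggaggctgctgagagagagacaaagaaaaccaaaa

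The genes whose log2 CPM followed that of Cd27 most closely over the 8 libraries, among 5102 tested genes with a mean log2 CPM above 5, were Txndc5, Slfn2, Mr1, Tcp11l2 and Rnf130, with Pearson correlations of 0.993, 0.992, 0.990, 0.990 and 0.989. These are descriptions over libraries that share organ and genotype and carry no test. Txndc5, an endoplasmic reticulum protein, followed the same order of groups as Cd27, at 115 ± 4.59 (Wt) and 146 ± 2.49 CPM (KO) in lung and at 188 ± 4.06 (Wt) and 234 ± 3.06 CPM (KO) in spleen. Mr1, which encodes a molecule that presents small metabolites, spanned less, from 42.7 ± 1.09 CPM in lung Wt to 74.3 ± 1.88 in spleen KO.

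Tnfrsf9 encodes CD137, a receptor that appears on activated NK and T cells. It was read at 188 and 185 CPM (Wt) and 205 and 213 CPM (KO) in the lung libraries, and 163 and 155 CPM (Wt) and 92.9 and 98.8 CPM (KO) in the spleen libraries. The KO libraries lay above the Wt libraries in lung and well below them in spleen. In spleen KO it fell to 0.617-fold (log2 fold change -0.70, SE 0.055, edgeR adjusted p = 2.65e-13), and this was the 1 spleen change among the 8 genes that was called with a fold of at least 1.5. The rise in lung was 1.12-fold (0.16, SE 0.052, adjusted p = 0.00708). That lung call was lost with DESeq2 (0.15, adjusted p = 0.11) and without replicate 2 of lung KO (0.14, adjusted p = 0.106). Tnfrsf9 has a GC content of 47.9%, below the median of all genes, and removing the GC trend left -0.69 in spleen and 0.13 in lung.

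Tnfrsf18 encodes GITR, a receptor found on regulatory T cells and on NK cells. Its level was 387 and 382 CPM in the Wt libraries of the lung and 302 and 324 CPM in its KO libraries. In the spleen these levels were 376 and 349 CPM (Wt) and 486 and 455 CPM (KO). The direction was the reverse of that of Tnfrsf9: KO lay below Wt in lung and above it in spleen, without overlap. Its log2 fold change was -0.29 in lung KO (SE 0.047, edgeR adjusted p = 1.98e-06) and 0.37 in spleen KO (SE 0.044, adjusted p = 5.98e-09). With the GC trend removed both changes were larger, at -0.59 and 0.61. The value is uncertain, because 414 bp (27.2%) of the exons of Tnfrsf18 overlap Gm16008 on the other strand. The strand setting of the counting is not given in the sources used here, so reads of the pair cannot be told apart. Gm16008 itself was at 127 ± 3.13 and 110 ± 1.86 CPM in lung Wt and KO, and at 117 ± 8.72 and 168 ± 8.86 CPM in spleen, and was called in the same directions (-0.195 with adjusted p = 0.00899, and 0.52 with adjusted p = 6.72e-10).

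Tnfrsf4 encodes OX40 and lies 9.6 kb from Tnfrsf18 on chromosome 4, with no coding gene between them. It had 11 and 4 reads (Wt) and 0 and 3 reads (KO) in the lung libraries, and 0 and 1 (Wt) and 4 and 38 (KO) in those of the spleen. The 2 libraries with the most reads were the deepest one, at 1.45 CPM, and replicate 1 of lung Wt, at 1.37 CPM. Pooled over libraries, spleen KO held 42 reads against 1 in spleen Wt, a CPM ratio of 18.1 with an exact 95% interval of 3.07 to 731. Lung Wt held 15 reads against 3 in lung KO, a ratio of 5.14 with an interval of 1.45 to 27.7. These intervals cover counting error only and not the spread between libraries. As for Tnfrsf18, there was less of it in lung KO and more in spleen KO than in Wt, at a level near the floor of 3 reads.

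Tnfrsf14 encodes HVEM, which binds LIGHT, BTLA and CD160. It had 14 and 9 reads in lung Wt, 1 read in each lung KO library and 0 reads in all 4 spleen libraries. In lung, the 23 reads of Wt against 2 of KO gave a CPM ratio of 11.8 with an exact 95% interval of 2.92 to 104. The lung Wt level was 8.09-fold the floor of 3 reads over the spleen Wt group. The exact 95% lower limit of the ratio of lung Wt to spleen Wt was 6.07. A count of 0 allows up to 0.238 CPM in spleen Wt and up to 0.103 CPM in spleen KO. The platelet genes Pf4 and Ppbp fell in the same libraries, from 8.42 ± 0.204 to 0.884 ± 0.482 CPM and from 20.6 ± 0.657 to 5.40 ± 0.998 CPM in lung, and their part in the Tnfrsf14 reads was not tested. Of the partners of HVEM, Cd160 fell slightly in lung KO, from 75.8 ± 1.39 to 64.5 ± 3.76 CPM (-0.22, edgeR adjusted p = 0.0137), and Btla had 0 reads in both lung Wt libraries and 7 and 5 in lung KO.

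The TNF receptors proper, Tnfrsf1a with a death domain and Tnfrsf1b with a TRAF-binding tail, were both higher in lung KO. Tnfrsf1a was read at 16.0 and 19.4 CPM (Wt) and 28.6 and 26.1 CPM (KO) in the lung libraries, and 22.2 and 23.9 CPM (Wt) and 20.5 and 18.7 CPM (KO) in the spleen libraries. It rose 1.58-fold in lung KO (log2 fold change 0.66, SE 0.128, edgeR adjusted p = 3.94e-05), and 0.35 of the log2 change was left with the GC trend removed (adjusted p = 0.0212). In spleen the libraries also did not overlap, but the fall of 0.30 (SE 0.111, adjusted p = 0.0196) was -0.063 with the GC trend removed (adjusted p = 0.66). That spleen call was also lost with DESeq2 (adjusted p = 0.346), without replicate 2 of spleen Wt (adjusted p = 0.291) and without replicate 2 of spleen KO (adjusted p = 0.499).

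Tnfrsf1b was the more abundant of the pair, with 51.3 and 51.7 CPM in the Wt libraries of the lung and 75.4 and 69.6 CPM in its KO libraries. In the spleen these levels were 53.4 and 54.1 CPM (Wt) and 32.3 and 36.9 CPM (KO). The Wt libraries of both organs lay within 3 CPM of each other, and the KO libraries lay on opposite sides of them. It rose 1.40-fold in lung KO (0.49, SE 0.081, edgeR adjusted p = 3.36e-06) and fell to 0.672-fold in spleen KO (-0.57, SE 0.080, adjusted p = 1.35e-07). With the GC trend removed these were 0.25 (adjusted p = 0.00903) and -0.41 (adjusted p = 3.55e-05). The difference between the organs was 1.06 (SE 0.114, adjusted p = 2.79e-10), and 0.65 with the trend removed.

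Among the adaptors, Traf1 and Traf2 were changed in spleen. Traf1 was at 84.9 and 97.7 CPM (Wt) and 88.4 and 94.4 CPM (KO) in the lung libraries, and 104 and 102 CPM (Wt) and 77.6 and 75.2 CPM (KO) in the spleen libraries. The lung groups overlapped, and the spleen groups were apart. It fell to 0.736-fold in spleen KO (-0.44, SE 0.064, edgeR adjusted p = 2.86e-07), or by 0.27 with the GC trend removed (adjusted p = 0.000392). In lung the difference was 0.037 (95% interval -0.11 to 0.18, adjusted p = 0.681), and it turned to -0.21 and was called with the trend removed (adjusted p = 0.0101).

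Traf2 followed Traf1, with 104 and 113 CPM in the Wt libraries of the lung and 96.0 and 102 CPM in its KO libraries. In the spleen these levels were 104 and 111 CPM (Wt) and 76.9 and 79.2 CPM (KO). Again spleen KO stood apart from the other 3 groups. The fall in spleen KO was to 0.726-fold (-0.46, SE 0.062, edgeR adjusted p = 5.73e-08). In lung the value of -0.11 (95% interval -0.25 to 0.02, adjusted p = 0.144) was called only with the GC trend removed (-0.265, adjusted p = 0.000638, or -0.285 with the replicate block as well). For Traf1 and Traf2 the difference between the organs was therefore called (0.48 and 0.35) without the offset, and not with it (0.058, adjusted p = 0.62, and 0.115, adjusted p = 0.268).

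Traf3 was the least abundant of the 8 tested genes, with 6.21 and 7.24 CPM (Wt) and 13.5 and 13.2 CPM (KO) in the lung libraries, and 14.0 and 12.6 CPM (Wt) and 13.4 and 10.5 CPM (KO) in the spleen libraries. Lung Wt stood apart from the other 3 groups at about 0.50-fold of the spleen Wt level. Traf3 rose in lung KO (2.03-fold, log2 fold change 1.02, SE 0.192, edgeR adjusted p = 2.47e-05), which was the largest change among the 8 genes in either organ. It was 0.80 with the GC trend removed, and it was the 1 lung call on these genes left when a coefficient of variation of 0.2 between libraries was assumed (adjusted p = 0.0399). In spleen the groups overlapped, at -0.26 (95% interval -0.56 to 0.036, adjusted p = 0.127), or -0.12 with the GC trend removed.

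The 250 bases before the starts of Traf1 (RefSeq, GRCm38.p6, chr2:34961773-34962022, minus strand, 48% GC) and Traf3 (chr12:111166120-111166369, plus strand, 85.2% GC) are shown because theirs were the adaptor windows that held a match. In Traf1 the capitals mark a T-box match from -151 to -146 and a RUNX match from -78 to -73, and in Traf3 they mark an NF-kappaB match from -10 to -1, counted back from the start.
Traf1: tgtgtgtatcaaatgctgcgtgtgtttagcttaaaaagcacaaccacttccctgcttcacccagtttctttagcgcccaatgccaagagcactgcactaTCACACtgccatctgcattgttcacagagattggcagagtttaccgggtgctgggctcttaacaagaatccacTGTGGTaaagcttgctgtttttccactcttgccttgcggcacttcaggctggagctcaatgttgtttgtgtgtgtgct
Traf3: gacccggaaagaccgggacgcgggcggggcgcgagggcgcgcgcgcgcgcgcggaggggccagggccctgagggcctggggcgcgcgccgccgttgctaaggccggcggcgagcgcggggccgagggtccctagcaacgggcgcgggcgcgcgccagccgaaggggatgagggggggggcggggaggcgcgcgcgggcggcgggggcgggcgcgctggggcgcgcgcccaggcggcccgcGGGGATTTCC
Of 32851 such windows of all genes, searched on both strands, 14% held the RUNX letters TGTGGT, 12.3% the T-box letters TCACAC, 6.75% the AP-1 letters TGANTCA and 3.9% the NF-kappaB consensus. Among the other members, the window before an internal start of Tnfrsf9 held an AP-1 match from -15 to -9 and overlapping NF-kappaB matches from -43 to -33, and that of Tnfrsf14 held a T-box match from -26 to -21. The windows of Tnfrsf18, Tnfrsf4, Tnfrsf1a, Tnfrsf1b and Traf2 held none of these. A match is a run of letters and not a measured binding site. The RUNX result also depends on the letters chosen. The paper gives the RUNX recognition sequence as PuACCPuCA (Pu is A or G). On the other strand this reads TGYGGTY (Y is C or T). The marked Traf1 stretch reads TGTGGTA and departs from it at the last base. The Traf2 window holds TGCGGTT, which has that form. The windows were not searched for that sequence.

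**Figure D2:**
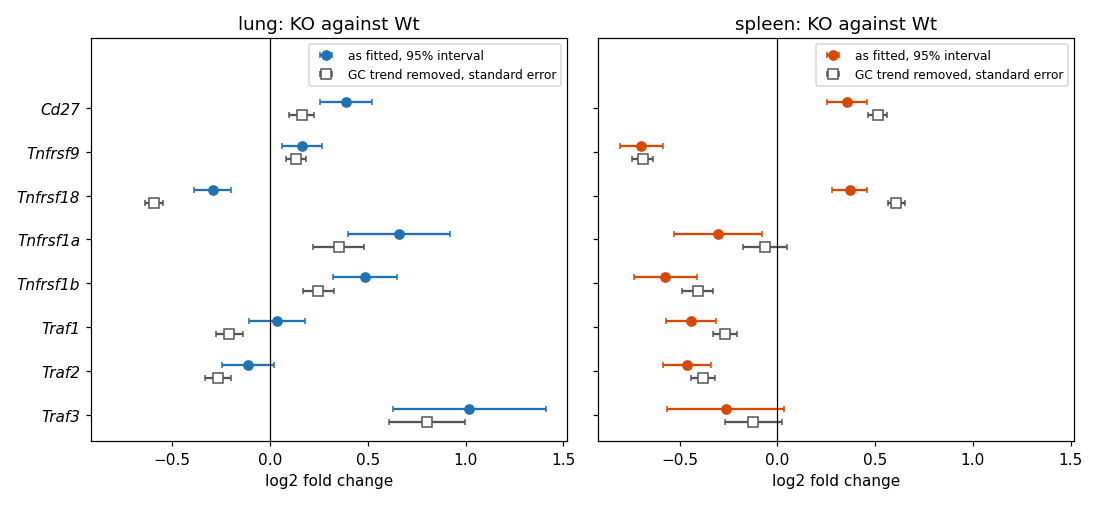
Log2 fold change of KO against Wt (horizontal axes) for the 8 tested genes (rows) in lung (left) and spleen (right); filled circles are the fitted values with 95% intervals, and open squares are the values with the GC trend removed, with standard errors. Removing the trend left Traf3, Tnfrsf1a, Tnfrsf1b and Cd27 above 0 in lung and Tnfrsf9, Tnfrsf1b, Traf1 and Traf2 below 0 in spleen, brought Tnfrsf1a to -0.063 in spleen and widened the changes of Tnfrsf18.

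The organs themselves were also compared within each genotype. In Wt, 5 of the 8 genes differed between lung and spleen, against 57% of all genes (27.7% higher in lung, 29.3% lower, and 28.5% called with a fold of at least 1.5). Scaling by library totals moved the share of higher calls among all calls from 48.6% to 36.9%. Tnfrsf9 was higher in Wt lung than in Wt spleen (0.24, SE 0.054, edgeR adjusted p = 0.000206), and Cd27, Traf3, Tnfrsf1a and Traf1 were lower. Traf3 was lower by 0.99 (SE 0.192, adjusted p = 3.37e-05), close to the size of the Cd27 difference. Tnfrsf1a (-0.44, adjusted p = 0.00434) and Traf1 (-0.20, adjusted p = 0.0142) lost their calls with the GC trend removed (adjusted p of 0.102 and 0.689), with DESeq2 (0.127 and 0.211) and without replicate 1 of lung Wt (0.274 and 0.665). Without replicate 2 of spleen Wt they also lost them, with adjusted p of 0.1 and 0.055. Tnfrsf18, at 0.097, was not called (adjusted p = 0.0729). It was called as higher in Wt lung with the GC trend removed (0.285, adjusted p = 6.52e-07) and with RLE scaling (adjusted p = 0.0366). It was also called without replicate 1 of spleen Wt (0.137) or replicate 2 of spleen KO (0.11). With the replicate block added to the offset it was 0.22 (adjusted p = 5.42e-05). That value compares the fitted replicate 1 levels of the organs and not the group means.

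In KO, 7 of the 8 genes differed between the organs, against 65.6% of all genes (33.9% higher in lung, 31.7% lower, and 33.2% called with a fold of at least 1.5). Tnfrsf9 was 2.15-fold higher in KO lung than in KO spleen (1.10, SE 0.052, edgeR adjusted p = 2.62e-20) and Tnfrsf1b was 1.99-fold higher (0.99, SE 0.075, adjusted p = 3.08e-14). Tnfrsf18 was lower in lung (-0.57, or -0.92 with the GC trend removed), as was Cd27, and Tnfrsf1a (0.52), Traf2 (0.34, or 0.215 with the trend removed) and Traf1 (0.28) were higher. Of these, the calls on Tnfrsf1a and Traf1 were lost with the GC trend removed (0.16 and 0.023). They were also lost without replicate 2 of spleen KO (0.409 and 0.252). With the replicate block, which compares the fitted replicate 1 levels of the organs and not the group means, Traf1 was at 0.17 (adjusted p = 0.13). Traf3, lower in Wt lung, was at 0.29 in KO (95% interval -0.009 to 0.59, adjusted p = 0.0827), or 0.082 with the GC trend removed.

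Per length of exon, Tnfrsf18 was the most abundant of the 10 genes in every group, at 252 ± 2.40 (Wt) and 205 ± 10.4 CPM per kb (KO) in lung and at 238 ± 12.5 (Wt) and 309 ± 14.2 CPM per kb (KO) in spleen. The second place changed with the organ: in lung it was Tnfrsf9, at 68.6 ± 0.844 in Wt and 76.8 ± 1.89 in KO, ahead of Cd27 at 38.7 ± 1.01 and 50.2 ± 3.10 CPM per kb. In spleen it was Cd27, at 78.1 ± 3.75 in Wt and 98.3 ± 2.48 in KO, ahead of Tnfrsf9 at 58.5 ± 2.19 and 35.2 ± 1.53 CPM per kb. Traf2 came next in all 4 groups, at between 15.3 and 21.3 CPM per kb, and then Tnfrsf1b, at between 9.06 and 19.0. Neighbours lower in this order were close: in spleen KO, Tnfrsf1b at 9.06 ± 0.858 and Traf1 at 8.66 ± 0.192 CPM per kb differed by less than their spread. Traf3 lay between 0.915 and 1.81 CPM per kb. It was above Tnfrsf4 and Tnfrsf14 except in lung Wt, where Tnfrsf14 was at 1.41 ± 0.29 CPM per kb. In lung KO it was at 1.81 CPM per kb against 0.149 for Tnfrsf4 and 0.118 for Tnfrsf14. Gene models that differ from those expressed in NK cells would shift these levels, though not the comparisons of a gene between groups.

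Of the receptor genes, 5 lie on chromosome 4, in the order Tnfrsf1b, Tnfrsf9, Tnfrsf14, Tnfrsf4 and Tnfrsf18, while Cd27 and Tnfrsf1a lie 112 kb apart on chromosome 6 with 3 coding genes between them. Genes on the same chromosome did not all move the same way. On chromosome 4, Tnfrsf1b and Tnfrsf9 were higher in lung KO and lower in spleen KO. Tnfrsf18 did the reverse, as did the few reads of Tnfrsf4 next to it. Tnfrsf14 had fewer reads in lung KO than in lung Wt and none in spleen. On chromosome 6, Cd27 rose in spleen KO where Tnfrsf1a fell.

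The rest of the pathway was described from lists of other receptors, ligands, adaptors and NF-κB genes. Of all genes tested, 29.2% were higher and 26.4% lower in lung KO, and 28.2% higher and 28.9% lower in spleen KO. The counts of these lists, and of the maturation genes below, stand against those shares. Of 21 other receptors of the superfamily, 9 were tested, with 4 higher and 1 lower in lung KO and 2 higher and 3 lower in spleen KO. Tnfrsf13b (TACI, a receptor for BAFF and APRIL) was at 2.29 ± 0.783 (Wt) and 9.11 ± 2.13 CPM (KO) in lung (log2 fold change 2.07, edgeR adjusted p = 1.19e-07), and at 16.2 ± 0.337 and 8.01 ± 0.192 CPM in spleen (-1.03, adjusted p = 6.66e-07). Tnfrsf13c, the BAFF receptor, rose in lung KO by 1.16 (adjusted p = 0.0028). TACI and the BAFF receptor are best known from B cells. Of 5 B-cell markers, 3 had no read in lung Wt while all 5 were read in lung KO, their summed level lay between 5.17 and 8.28 CPM in the lung libraries and between 38.1 and 44.3 CPM in spleen, and their part in these values was not tested. Tnfrsf23, a decoy receptor for TRAIL, had 0 reads in both Wt libraries of the lung against 8 and 14 with KO, and 3 and 12 reads in those of the spleen against 0 and 1 with KO. Tnfrsf25 (death receptor 3) fell in spleen KO from 3.94 ± 0.782 to 1.49 ± 0.268 CPM (-1.19, adjusted p = 0.000896).

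Of 17 ligands, 8 were tested, with 1 higher and 2 lower in each organ (0 and 4 in lung, and 1 and 1 in spleen, with the GC trend removed). Cd70, the ligand of CD27, was not among them, with at most 3 reads in any library. Fasl, the ligand of the death receptor Fas, was the most abundant, with 1452 ± 11.5 (Wt) and 1155 ± 13.4 CPM (KO) in lung and 663 ± 25.4 (Wt) and 880 ± 3.6 CPM (KO) in spleen. It fell in lung KO (-0.33, SE 0.036, edgeR adjusted p = 6.71e-10) and rose in spleen KO (0.405, SE 0.038, adjusted p = 1.81e-11), as Tnfrsf18 did. Ltb, a subunit of lymphotoxin, moved the other way, at 67.2 ± 2.30 and 78.1 ± 3.25 CPM in lung (0.24, adjusted p = 0.0129) and 272 ± 27.2 and 205 ± 2.88 CPM in spleen (-0.39, adjusted p = 3.85e-08). Its lung value turned to -0.22 and its spleen value to -0.035 with the GC trend removed. Tnfsf4, the ligand of OX40, fell in lung KO from 7.82 ± 1.92 to 4.86 ± 0.347 CPM (-0.78, adjusted p = 0.00537), and Tnfsf14, which encodes LIGHT, fell in spleen KO from 42.4 ± 0.307 to 35.2 ± 2.28 CPM (-0.31, adjusted p = 0.00204, but -0.086 and not called with the GC trend removed).

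All 18 other adaptors of the list were tested, with 5 higher and 6 lower in lung KO and 2 higher and 10 lower in spleen KO. Their median log2 fold change was 0.033 in lung and -0.25 in spleen, against 0.02 and 0 over all genes, and the lung median turned to -0.063 with the GC trend removed. Traf7 was the clearest, at 31.7 ± 4.14 and 53.2 ± 0.995 CPM in lung Wt and KO (0.79, edgeR adjusted p = 2.74e-08) and 56.3 ± 3.40 and 28.1 ± 3.82 CPM in spleen (-0.925, adjusted p = 2.4e-11). Traip, a TRAF-interacting ubiquitin ligase with a role in DNA replication, fell in lung KO from 5.32 ± 0.154 to 1.94 ± 0.717 CPM (-1.37, adjusted p = 0.000382). Traf4 fell in spleen KO from 7.83 ± 0.143 to 4.25 ± 1.36 CPM (-1.15, adjusted p = 2.53e-05).

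Of the 18 NF-κB genes downstream, 11 were higher and 1 lower in lung KO (median 0.275), and 3 were higher and 12 lower in spleen KO (median -0.47), while 6 in lung and 3 in spleen were not called. All 10 that were called in both organs were higher in lung KO and lower in spleen KO, as Tnfrsf1b was, against 1790 of the 4367 such genes in all. With the GC trend removed the counts were 10 higher and 1 lower in lung, and 3 higher and 11 lower in spleen. Map3k14, the kinase whose protein TRAF2 and TRAF3 hold down, was at 4.83 ± 1.21 and 9.69 ± 1.28 CPM in lung Wt and KO (1.11, edgeR adjusted p = 0.000123, or 0.72 with the GC trend removed) and at 8.40 ± 1.16 and 3.55 ± 0.873 CPM in spleen (-1.02, adjusted p = 9.15e-05). Rela, the p65 subunit, was at 38.8 ± 2.56 and 76.2 ± 2.29 CPM in lung (0.999, adjusted p = 2.75e-12, or 0.59 with the GC trend removed) and 71.5 ± 5.50 and 38.3 ± 3.02 CPM in spleen (-0.87, adjusted p = 3.6e-12, or -0.54).

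**Figure D3:**
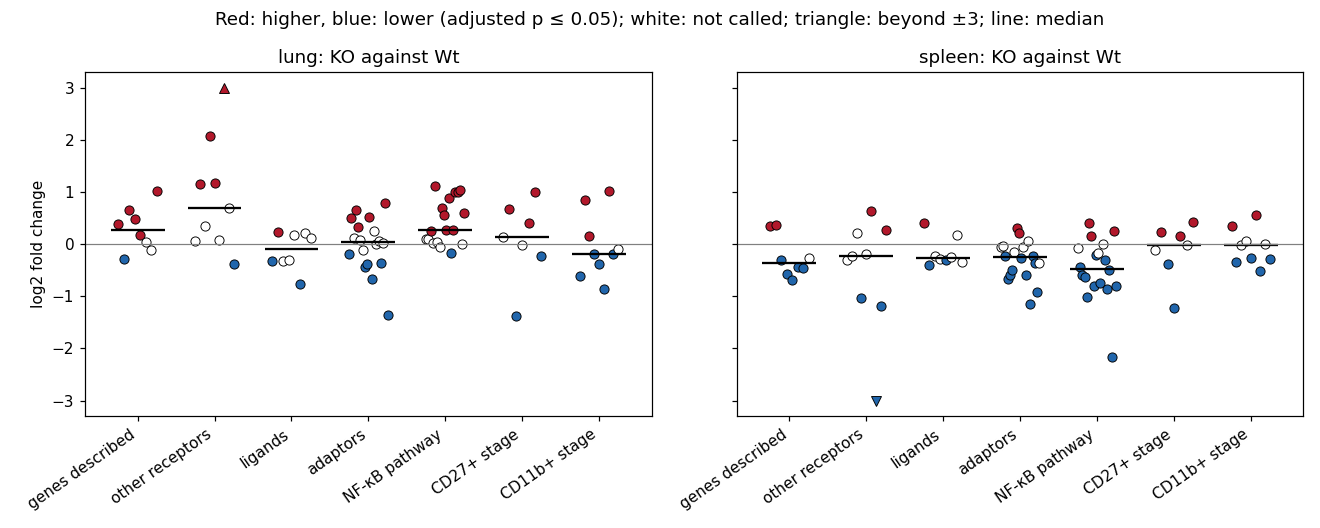
Log2 fold change of KO against Wt (vertical axis) in lung (left) and spleen (right) for the tested genes of each list (horizontal axis); each point is a gene, filled when called, a triangle is a gene beyond the axis (Tnfrsf23), and the black line is the median of the list. The NF-κB list had 11 genes higher in lung KO and 12 lower in spleen KO, while the adaptors were mixed in lung and had 10 of 18 lower in spleen.

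Cd27 was then set beside other genes that change as NK cells mature. Of 7 genes known to be higher in the less mature CD27-high stage, 3 were higher and 2 lower in lung KO, and again 3 higher and 2 lower in spleen KO (scaling by library totals made this 2 and 3 in spleen). Tcf7 and Emb were higher in KO in both organs, as Cd27 was. Emb, a cell adhesion protein, rose from 83.5 ± 2.15 to 134 ± 1.36 CPM in lung (0.68, edgeR adjusted p = 8.63e-12) and from 259 ± 0.401 to 305 ± 0.127 CPM in spleen. Thy1 rose in lung KO from 43.6 ± 0.457 to 86.3 ± 0.205 CPM (0.99, adjusted p = 1.9e-13). Xcl1, a chemokine, was lower in lung KO (-0.23, adjusted p = 0.0165) and higher in spleen KO (0.42, adjusted p = 5.12e-06), and Cxcr3, a chemokine receptor, was not called, at 0.13 and -0.11. Il7r, the IL-7 receptor chain, fell in both organs (-1.38, adjusted p = 3.25e-13 in lung, and -0.39, adjusted p = 2.39e-06 in spleen), and Kit fell in spleen KO (-1.23, adjusted p = 1.37e-14).

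Of 9 genes known to be higher in the mature CD11b-high stage, 3 were higher and 5 lower in lung KO, and 2 higher and 4 lower in spleen KO. The 5 that were lower in lung KO were Klrg1, Prdm1, Cma1, Ly6c2 and Spn. S1pr5, a receptor for exit from tissues, and Cx3cr1, a chemokine receptor, rose in lung KO (1.02, edgeR adjusted p = 1.24e-18, and 0.84, adjusted p = 2.74e-15) and fell in spleen KO (-0.51, adjusted p = 3.11e-11, and -0.35, adjusted p = 1.9e-05). Prdm1, which encodes the repressor Blimp-1, did the reverse (-0.86 in lung, adjusted p = 1.26e-07, and 0.55 in spleen, adjusted p = 0.000114). With the GC trend removed, S1pr5 was at 0.67 in lung and at -0.235 in spleen.

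**Figure D4:**
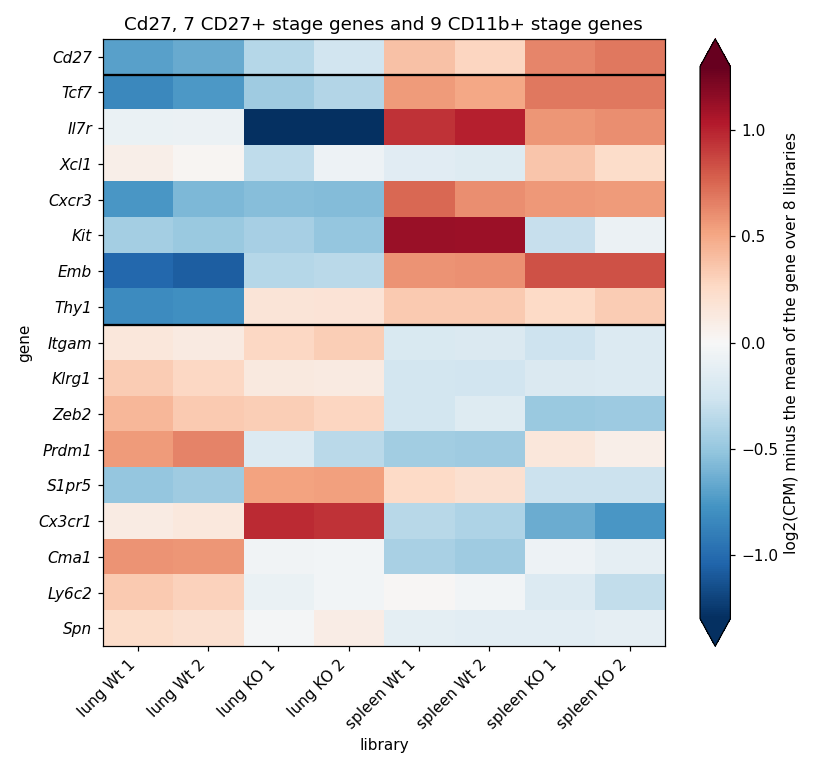
Log2 CPM of Cd27, 7 genes of the CD27-high stage and 9 of the CD11b-high stage (rows) in the 8 libraries (columns), each minus its mean over the libraries; red is higher and blue lower, and colours end at the limits of the bar. The first 7 genes below Cd27 were mostly lower in lung than in spleen, as Cd27 was, and the KO libraries of lung and spleen differed from Wt in opposite ways for S1pr5, Cx3cr1 and Prdm1.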

How the data were processed

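RNA-seq reads of 50 bp from 8 libraries were aligned to mm10 with HISAT2 2.1.0 and counted on genes with HTSeq 0.11.1 by the authors (versions from the submitters' processing notes), who deposited the counts of each gene symbol as they were, with no scaling. The strand setting and the annotation used for counting are not given in the sources used here. Shares were taken over the reads that HTSeq counted on genes, found on no feature or called ambiguous, so reads in its other categories are not in them. Between 44.3% and 46.6% of these were counted on genes, and between 52.67% and 55.05% lay on no feature. HTSeq's categories of uncounted reads, which name no gene, were left out of library sizes and tests.

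Groups and replicate numbers came from the sample titles. The analysis used edgeR 4.0.16 (R 4.3.3), with filterByExpr over the 4 groups, TMM scaling, 1 mean per group fitted to all 8 libraries, and quasi-likelihood tests whose p-values were adjusted by Benjamini-Hochberg over 12595 genes. The contrasts were KO against Wt in each organ, their difference, and lung against spleen in each genotype. Standard errors were derived from the F statistics. The common biological coefficient of variation was 2.5%, with 4 residual degrees of freedom. A floor of 3 counts corresponded to between 0.115 and 0.978 CPM per library. The exact intervals of the CPM ratios of Tnfrsf4 and Tnfrsf14, and the floors, cover counting error only. Intervals of log2 fold changes rest on the standard errors from the F statistics and so include the spread between libraries. The 10 genes, the lists and the tests were chosen with earlier results of these data known. The genes named were all members, the 3 called genes with the largest change in each organ from each other list, the 5 genes closest to Cd27 in pattern, and genes overlapping a member. Of the NF-κB, adaptor, stage and marker lists fewer are printed. Cd70, Tcf7, Cxcr3, Klrg1, Cma1, Ly6c2, Spn and the single cell-type markers were named after their values were seen. A further gene planned for the CD27-high list is not reported here. Markers of other cell types were summed in each library. Those of ILC2 and regulatory T cells lay between 383 and 387 CPM in lung Wt and 426 and 443 CPM in lung KO. In spleen they lay between 425 and 429 CPM in Wt and 354 and 360 CPM in KO. Gata3 made up most of this sum, at 361 and 409.5 CPM in lung Wt and KO and at 403 and 327 CPM in spleen. T-cell markers lay between 272 and 294 CPM in spleen. Of the 5 tested there, 1 was called as higher in KO (Trac) and 1 as lower (Cd3e, -1.60, edgeR adjusted p = 9.64e-14). ILC1 markers lay between 159 and 169 CPM in spleen Wt and 134 and 148 CPM in spleen KO, where 1 was called as higher and 2 as lower. Myeloid markers lay between 33.0 and 41.7 CPM in lung. Markers of lung tissue lay between 65.6 and 75.6 CPM in spleen, nearly all from Pecam1 (69.8 and 67.5 CPM in Wt and KO). Sftpc, Sftpb, Scgb1a1 and Cdh5 had no reads there. Blood markers lay between 54.4 and 59.1 CPM in lung, where 3 of the 6 were called as higher and 2 as lower in KO. In spleen they lay between 1.50 and 1.75 CPM in Wt and 2.87 and 2.93 CPM in KO.

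GENCODE M21 (GRCm38) gave the positions, exon lengths and GC content of genes, and in it 46394 of 48321 symbols matched by name and 584 by an older name. Among the genes tested, 99.3% had a GC value. All 10 members had a promoter window in the RefSeq table. The alternatives tried were RLE scaling, library totals, DESeq2 1.42.0, no filter, a minimum of 10 counts per library, only the 4 libraries of a comparison, a replicate block, a GC offset (a spline with 5 degrees of freedom per library) with and without that block, the omission of each library in turn, and an assumed coefficient of variation of 0.2. The steps were tested on simulated counts.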

Additional observations from a re-analysis of the deposited data

Results flagged for a closer look

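For 7 of the 8 tested genes, the effect of the KO differed between lung and spleen by edgeR's test of the interaction, as it did for 61.6% of all genes. The difference of log2 fold changes, lung minus spleen, was 1.28 for Traf3 (SE 0.244, adjusted p = 2.12e-05), 1.06 for Tnfrsf1b (SE 0.114, adjusted p = 2.79e-10), 0.96 for Tnfrsf1a (SE 0.170, adjusted p = 7.06e-06) and 0.86 for Tnfrsf9 (SE 0.075, adjusted p = 1.64e-12). It was 0.48 for Traf1 (SE 0.095, adjusted p = 4.04e-05), 0.35 for Traf2 (SE 0.090, adjusted p = 0.00101) and -0.66 for Tnfrsf18 (SE 0.065, adjusted p = 2.74e-11). With the GC trend removed, the differences were 0.93 for Traf3, 0.65 for Tnfrsf1b, 0.41 for Tnfrsf1a, 0.82 for Tnfrsf9 and -1.20 for Tnfrsf18, all still called, while those of Traf1 and Traf2 were not. Under an assumed coefficient of variation of 0.2, none of the 7 was called.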

How the results depend on the processing

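The number of members called stayed within 1.5 times its value in all 5 comparisons under RLE scaling, library totals, both filters, the fit of 4 libraries, the GC offset and the replicate block. The block gave 6, 7, 7, 5 and 6 calls (lung KO, spleen KO, interaction, organs in Wt, organs in KO). The deviations of replicate 1 from the group mean were correlated between Wt and KO (r = -0.0139 in lung and 0.169 in spleen over 5103 genes). With 1 such pair per organ, these values cannot show whether libraries of equal number were paired. Lung was not compared with spleen in that way. Without a filter Tnfrsf4 and Tnfrsf14 were tested too. DESeq2 called 4507 genes in lung and 4165 in spleen, and 3 members between organs in Wt. An assumed coefficient of variation of 0.2 left 1, 0, 0, 2 and 3 members and 1557, 1144, 2017, 2011 and 2316 genes, so most calls rest on the small spread between libraries. Leaving out 1 library gave between 3 (without replicate 1 of lung Wt) and 8 members (without replicate 1 of spleen Wt) between organs in Wt, and between 4448 (without replicate 2 of spleen KO) and 7493 genes in spleen. Of the directions that turned, 1 was that of a called value, Traf1 between organs in KO (0.28), and the others were those of values not called. For Traf2 between organs in Wt they were 0.005 (RLE), 0.020 (DESeq2), 0.10 (GC offset), 0.107 (GC offset with block), 0.015 (assumed variation) and up to 0.078 (1 library left out, from -0.054). For Tnfrsf1b in the same comparison they were 0.014 (block), 0.093 (GC offset) and 0.18 (GC offset with block), and for Tnfrsf18 -0.009 (library totals). With the GC offset, Traf1 in lung KO turned to -0.21 (-0.237 with the block), and the interaction of Cd27 to -0.35 (-0.373). With offset and block, Traf1 and Traf3 between organs in KO turned from 0.28 and 0.29 to -0.084 and -0.15. Between organs, any fit with the block compares the fitted replicate 1 levels and not the group means. Its values between organs are thus not of the same comparison as the main ones. With 1 library left out, Traf1 in lung KO ranged from -0.098 to 0.111, the interaction of Cd27 from -0.036 to 0.10 and Traf3 in spleen KO, at -0.26 with all libraries, from -0.362 to 0.032. The cause was not tested. Depth limits Tnfrsf4 and Tnfrsf14, read at 0 to 38 reads per library.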
